A study of Homo sapiens with 9 samples.

Results

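Zinc-finger (ZNF) genes that OCI-Ly1 cells express were followed across 3 treatments of 48 h. OCI-Ly1 is an established line of human diffuse large B-cell lymphoma. JIB-04 was given at 150 nM or at 500 nM, controls received its vehicle DMSO, each treatment has 3 libraries, and every group was the same line grown in IMDM with 10% fetal bovine serum. JIB-04 is a small molecule that inhibits histone demethylases of the Jumonji family. RNA was depleted of ribosomal RNA, sequenced and counted per gene symbol by the authors. The genes described are those whose symbol is ZNF followed by digits alone and whose mean over the DMSO libraries was at least 10 CPM (counts over the column total, scaled to one size for every library). They were thus chosen by their level in DMSO. By this rule 299 of 473 ZNF symbols, in a table of 25370 symbols, were members, and all 299 were among the 15089 genes that passed the filter on low counts. Since the DMSO level chose them, that level is a description. Just outside the threshold lay ZNF713 at 9.85 CPM and ZNF446 and ZNF580 at 9.93 CPM, and just inside lay ZNF419 at 10.2 CPM and ZNF34 and ZNF691 at 10.3 CPM.

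ZNF genes are the largest family of human transcription factor genes. Their C2H2 fingers, each held by a zinc ion between a pair of cysteines and a pair of histidines, read DNA sequence, and many members also carry a KRAB domain, which recruits the corepressor TRIM28 and through it the histone methyltransferase SETDB1. Many KRAB genes sit side by side in clusters that arose by duplication, and many of their proteins bind transposable elements. The genes are themselves known to carry repressive histone methylation over their 3′ ends, where ZNF274 brings SETDB1. A symbol of the form ZNF is given by name and not by function, so the set also holds promoter activators, RNA-binding proteins and a ubiquitin ligase.

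The label of the set as KRAB-type and other ZNF genes was checked on the translated transcripts of the GENCODE v29 annotation. A KRAB-like sequence pattern was found in at least 1 coding transcript of 177 members and in none for 122. The pattern is strict, and genes known to encode a KRAB or KRAB-like domain, such as ZNF263 and ZNF496, fall among the 122. By the number of C2H2 matches, 157 members had 11 or more, 91 had 6 to 10, 47 had 1 to 5 and 4 had none. The members were less GC-rich than other tested genes of the same DMSO range (10 to 695 CPM, 8513 genes): the median transcript was 43.2% GC against 47.3%, and 4023 bases long against 3484. Among the 299, levels per length in DMSO were led by ZNF106 at 68.9 CPM per kb, followed by ZNF593 at 45.1, ZNF146 at 42.4, ZNF638 at 39.3 and ZNF655 at 39.2 CPM per kb. ZNF655 is the one of these 5 with a KRAB-like pattern. Many members share long stretches of near-identical sequence with a neighbour, and reads of such genes can be split or lost in counting, so their single values are less certain.

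Libraries held 28476845 to 57198613 counts, and the 500 nM libraries (42351389 to 57198613) overlapped the DMSO libraries (28476845 to 44421096) in depth. Whether the libraries of a group are separate cultures is not stated in the labels, and p-values therefore reflect just the spread among these libraries, possibly a technical one. All 8 B-cell markers were present, with a summed level of 2040 to 2090 CPM in DMSO, 2070 to 2120 CPM at 150 nM and 1840 to 1920 CPM at 500 nM. The 5 T-cell markers in the table summed to 18.1 to 20.5 CPM in DMSO, 13.9 to 16.4 CPM at 150 nM and 8.22 to 9.02 CPM at 500 nM, with none at 0. The 6 myeloid markers summed to at most 2.74 CPM in any library, and 3 of them were at 0 in every DMSO library. The part of these markers in the ZNF values was not tested. In bulk RNA, fewer cells expressing a gene and less RNA of it per cell cannot be told apart.

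As a whole, the set took a slightly larger share of all counts at 500 nM and hardly a larger one at 150 nM. The members took 1.26%, 1.26% and 1.32% of all counts in DMSO, 1.27%, 1.32% and 1.35% at 150 nM, and 1.44%, 1.43% and 1.45% at 500 nM. The 500 nM shares lay above those of the other 6 libraries, while the 150 nM and DMSO shares overlapped. Genes at large also rose on this scale. With libraries scaled by total counts, the median log2 fold change at 500 nM against DMSO was 0.151 over all tested genes and 0.203 over members. With libraries scaled by TMM, which sets the bulk of genes level, the summed levels were 12900 to 13600 CPM in DMSO, 12900 to 14000 CPM at 150 nM and 13500 to 13700 CPM at 500 nM. On that scale the 3 groups overlapped. All CPM values of single genes below are on the TMM scale.

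**Figure D1:**
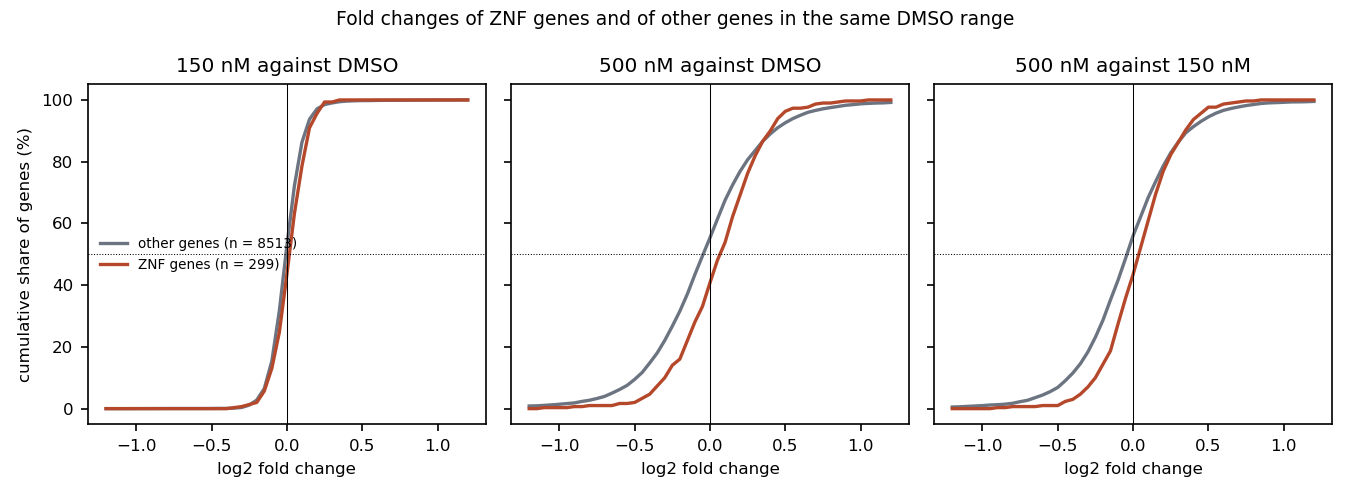
Cumulative share of genes (percent, y axis) by log2 fold change (x axis) for the 299 ZNF genes and the 8513 other tested genes of the same DMSO range, in the 3 comparisons. At 150 nM the medians are 0.021 and -0.007, and 43.5% of the ZNF genes and 52.8% of the other genes lie at or below 0. At 500 nM against DMSO the ZNF curve is narrower and crosses 50% at 0.062, where the curve of the other genes crosses at -0.046.

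The first comparison asked which ZNF transcripts differed at 150 nM. A single member was called, a decrease of ZNF395, a factor known to be induced by hypoxia. Of the 299 members 0 were called higher and 1 was called lower at an adjusted p under 0.05 (edgeR's quasi-likelihood test, Benjamini-Hochberg over all tested genes), or 0.334%. Over all tested genes the same rule called 1.27%, with 0.954% higher and 0.318% lower. DESeq2 and limma-voom also called 1 member each, and 29 of 299 members had an unadjusted p under 0.05, as did 1572 of the 15089 tested genes. For 36 members, 17 higher and 19 lower, no library of one group fell within the other, while 13.7% of all tested genes did not overlap. The median log2 fold change was 0.021 over the members, -0.007 over the other genes of their range and -0.003 over all genes.

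ZNF395 stood at 87.2, 93.6 and 96.7 CPM in DMSO, at 76.2, 70.4 and 67.1 CPM at 150 nM and at 70.5, 72.8 and 71.0 CPM at 500 nM. Both doses lay below every DMSO library, and the doses overlapped each other. Its log2 fold change was -0.38 ± 0.06 (SE, n = 3 per group, adjusted p = 0.000659 by edgeR) at 150 nM and -0.37 ± 0.06 (adjusted p = 1.59e-05) at 500 nM, and 500 nM differed from 150 nM by 0.00 ± 0.06 (adjusted p = 0.981). Both of its calls held under all 20 alternative fits. The count of members called higher at this dose rested on which libraries were kept: it was 14 without 150 nM replicate 1 and 3 without DMSO replicate 3, and 0 without any other library. Without 150 nM replicate 1, 5.02% of members and 5.05% of the other genes of their range were called in either direction. Among those that missed the threshold was ZNF768, at 11.8, 13.1 and 11.3 CPM in DMSO and 15.8, 14.6 and 14.2 CPM at 150 nM, a log2 difference of 0.31 ± 0.11 (adjusted p = 0.245). Its groups did not overlap, and the adjusted p was 0.0445 in a fit with GC trends removed.

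GC content moved with the small differences at 150 nM. The median log2 fold change was 0.094 over the 72 members under 40% GC, 0.032 over 110 members at 40 to 45%, -0.024 over 51 members at 45 to 50% and -0.041 over 66 members at 50% or more. Other genes of the same DMSO range gave 0.050, 0.022, -0.019 and -0.045 in the same bands. Across the 299 members, which share the 6 libraries, the correlation of fold change with GC content was r = -0.436 (Spearman's rho = -0.519), as a description over genes that are not independent. With offsets that hold each library's GC trend it was r = -0.18, the members' median was 0.004, and 2 members were called higher and 1 lower.

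**Figure D2:**
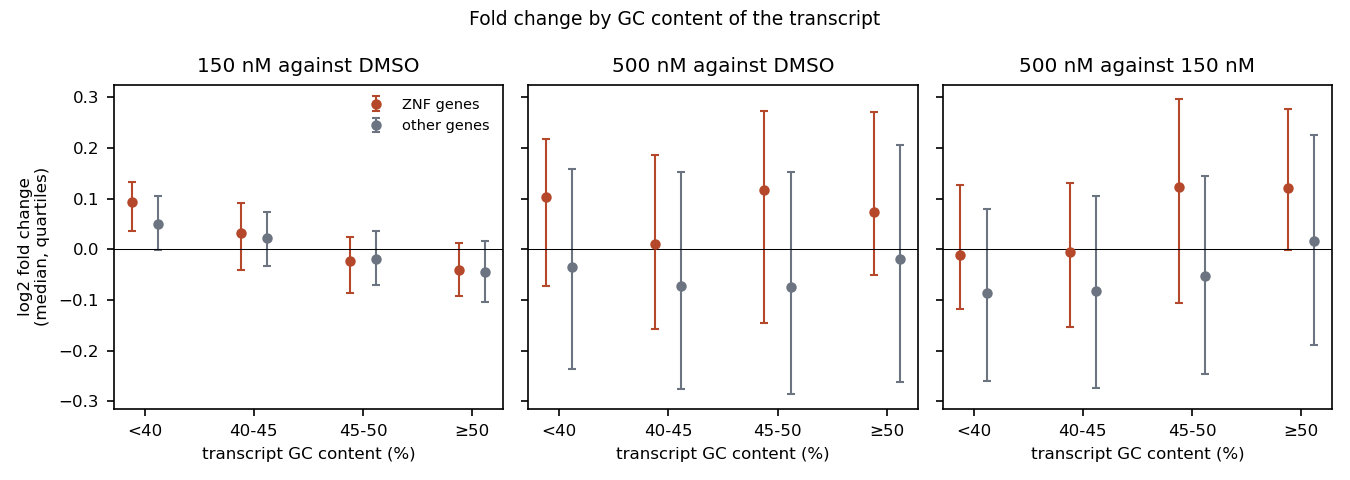
Median log2 fold change (points) and quartiles (bars) by GC content of the transcript (percent, x axis) for the ZNF genes and the other genes of the same DMSO range. At 150 nM both sets fall from the lowest to the highest GC band, from 0.094 to -0.041 for the ZNF genes; at 500 nM against DMSO the ZNF median is above that of the other genes in each of the 4 bands.

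The second comparison set 500 nM against DMSO. More members rose than fell, most changes were small, and single genes went far in both directions. Of the 299 members 91 were called higher and 51 lower, or 47.5%, and 157 were not called. Over all tested genes 52.0% were called, with 26.3% higher and 25.6% lower, so the members' share called was a little below that background. Among the 8513 other genes of the same DMSO range, 2110 were called higher and 2964 lower (59.6%). Of the called genes, 64.1% were higher among members, 41.6% among those other genes and 50.7% among all genes. The median log2 fold change was 0.062 over members, with quartiles of -0.122 and 0.233, and -0.046 over the other genes, with quartiles of -0.269 and 0.177. The groups did not overlap for 54.5% of members, against 59.2% of all tested genes.

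Changes of at least 2-fold were called for 1 member in each direction (0.669% of members, against 2.68% of the other genes of their range and 10.2% of all tested genes). At 1.5-fold there were 8 higher and 5 lower members (4.35%, against 11.8% of those other genes and 20.9% of all tested genes). The split between directions depended on scaling. With libraries scaled by total counts, which moved the median of all genes by 0.139 on the log2 scale, 149 members were called higher and 27 lower, so that 84.7% of called members were higher, against 64.7% of called other genes of the range. The members' median less that of the other genes was 0.108 as reported and 0.110 with total counts, and lay between 0.085 and 0.137 over the 20 alternative fits. This difference is not between genes of equal level. The median DMSO level was 30.7 CPM over members and 53.2 CPM over the other genes, and within bands of level the medians differed less evenly, as given below. A difference over members chosen with results known has no test here.

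By level in DMSO, calls were more often upward among the lower-expressed genes of both sets. The bands are set by the same DMSO libraries that enter the fold change, so some tilt of this kind is built in. At 10 to 20 CPM, 43.0% of 79 members were called and 76.5% of the called ones were higher, against 54.5% and 65.4% for 1260 other genes. At 20 to 40 CPM, 46.4% of 112 members were called with 67.3% higher, against 53.5% and 57.6% for 2034 other genes. At 40 CPM or more, 51.9% of 108 members were called with 53.6% higher, against 63.2% and 31.4% for 5219 other genes. In each band a smaller share of members than of other genes was called, and a larger share of the calls was upward. The band medians were 0.115, 0.022 and 0.052 for members and 0.097, 0.045 and -0.106 for other genes, so in the middle band the members' median was the lower one. Against 150 nM, where the fold change does not use the DMSO level, 83.3%, 64.9% and 46.7% of called members were higher in the 3 bands, and 66.5%, 59.9% and 29.8% of called other genes.

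**Figure D3:**
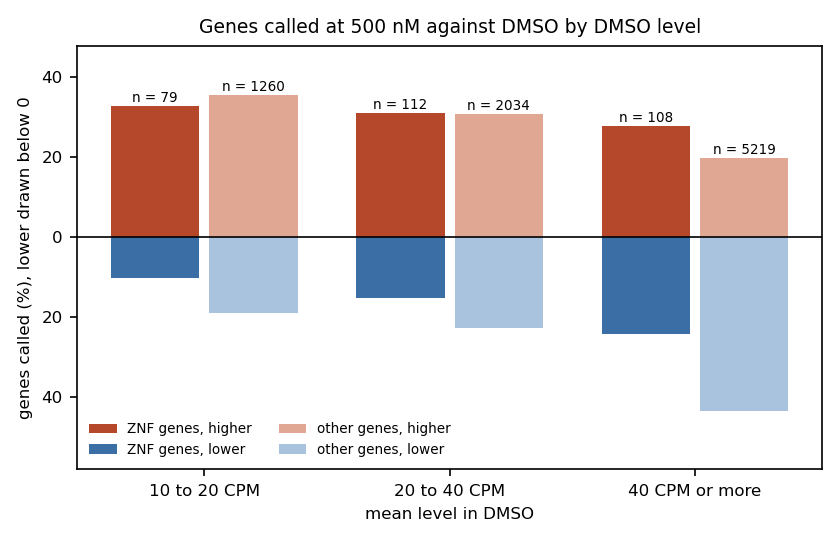
Share of genes called (percent, y axis) at 500 nM against DMSO, higher above 0 and lower below 0, by mean DMSO level in 3 bands, for ZNF genes (dark) and other genes (light), with the number of genes above each bar. At 40 CPM or more, 24.1% of the ZNF genes and 43.4% of the other genes were called lower.

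The third comparison, 500 nM against 150 nM, sets groups side by side that do not include the DMSO libraries whose level chose the members, although those libraries enter the shared estimate of the spread. More members were called higher than lower here too, 65 against 41, or 35.5%. The split differed by GC content. Under 40% GC 8 of 72 members were called higher and 10 lower, and at 40 to 45% 17 and 22 of 110. At 45 to 50% 16 of 51 were higher and 5 lower, and at 50% or more 24 and 4 of 66. The members' medians in these bands were -0.012, -0.006, 0.123 and 0.121. Those of other genes of the range were -0.087, -0.083, -0.053 and 0.017. Over all tested genes 46.5% were called, 23.7% higher and 22.8% lower, and of the other genes of the members' DMSO range 54.6% were called, 1909 higher and 2743 lower. The members' median log2 fold change was 0.038 and that of the other genes -0.040. The 500 nM libraries are shared with the comparison against DMSO. The groups did not overlap for 47.2% of members, against 55.0% of all tested genes. Fitted on the 6 libraries of these groups alone, 67 members were called higher and 42 lower (36.5%, against 56.2% of the other genes). With total-count scaling, which moved the median of all genes by 0.123, 132 members were called higher and 20 lower (50.8%), against 3148 and 1651 of the other genes (56.4%). With GC trends removed 108 were called higher and 45 lower (51.2%), against 2284 and 2963 of the other genes (62.4%).

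The start-site windows of the members with the largest increases at 500 nM, ZNF768 and ZNF496, and the largest decreases, ZNF860 and ZNF215, are shown here, so that the sequence around starts of both kinds can be compared. Each window is 300 bases, from 250 before to 50 after the gene's start, in the gene's own direction, from RefSeq on GRCh38.p14. Capitals mark matches, on either strand, to the GC box GGGCGG, the CCAAT box CCAAT and the ETS element CCGGAAGT.
ZNF768, chr16:30526517-30526816, minus strand: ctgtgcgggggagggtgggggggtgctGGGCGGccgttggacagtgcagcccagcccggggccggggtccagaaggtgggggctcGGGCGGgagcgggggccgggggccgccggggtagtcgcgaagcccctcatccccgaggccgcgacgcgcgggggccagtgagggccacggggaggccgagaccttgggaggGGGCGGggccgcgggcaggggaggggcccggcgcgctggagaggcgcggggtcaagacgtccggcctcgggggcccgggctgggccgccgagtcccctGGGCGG
ZNF496, chr1:247331818-247332117, minus strand: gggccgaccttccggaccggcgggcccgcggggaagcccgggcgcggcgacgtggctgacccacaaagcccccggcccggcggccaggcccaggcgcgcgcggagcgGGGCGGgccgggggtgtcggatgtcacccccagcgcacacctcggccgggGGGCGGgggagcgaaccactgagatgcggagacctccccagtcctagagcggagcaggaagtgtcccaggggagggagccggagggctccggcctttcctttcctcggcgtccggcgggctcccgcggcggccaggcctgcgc
ZNF860, chr3:31981500-31981799, plus strand: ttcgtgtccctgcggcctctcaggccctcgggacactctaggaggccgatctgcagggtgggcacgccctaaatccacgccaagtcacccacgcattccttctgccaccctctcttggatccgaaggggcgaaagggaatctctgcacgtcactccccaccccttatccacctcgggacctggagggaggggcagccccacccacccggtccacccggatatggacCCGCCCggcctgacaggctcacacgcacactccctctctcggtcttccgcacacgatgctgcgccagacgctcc
ZNF215, chr11:6926176-6926475, plus strand: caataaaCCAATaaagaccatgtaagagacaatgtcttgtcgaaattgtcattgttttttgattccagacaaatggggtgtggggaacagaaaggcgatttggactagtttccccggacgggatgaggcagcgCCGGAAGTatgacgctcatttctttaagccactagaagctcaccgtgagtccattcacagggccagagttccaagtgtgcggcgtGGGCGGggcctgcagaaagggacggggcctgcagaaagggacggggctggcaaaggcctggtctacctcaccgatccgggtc
The window of ZNF768 was 81.7% GC with 36 CpG dinucleotides and 4 GC boxes, and that of ZNF496 was 78.3% GC with 39 CpGs and 2 GC boxes. ZNF860 had 65.7% GC, 21 CpGs and 1 GC box, and ZNF215 had 53.7% GC, 15 CpGs and 1 match each to the GC box, the CCAAT box and the ETS element. These are descriptions of 4 windows, and the motifs were chosen after values were seen.

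ZNF768, a factor known to bind sites within MIR repeats, had the largest increase. It stood at 11.8, 13.1 and 11.3 CPM in DMSO and at 23.2, 29.2 and 22.3 CPM at 500 nM, where all libraries lay above those of both other groups. The log2 fold change was 1.05 ± 0.11 (adjusted p = 3.22e-09) against DMSO and 0.74 ± 0.10 (adjusted p = 1.42e-06) against 150 nM. ZNF496, whose protein binds the histone methyltransferase NSD1, stood at 18.5, 18.7 and 16.9 CPM in DMSO, 18.3, 18.2 and 18.8 CPM at 150 nM and 34.3, 31.2 and 33.6 CPM at 500 nM. DMSO and 150 nM overlapped and 500 nM lay apart. It rose by 0.88 ± 0.08 (adjusted p = 1.11e-09) against DMSO. ZNF275 stood at 49.3, 50.4 and 47.2 CPM in DMSO, 56.4, 54.8 and 52.5 CPM at 150 nM and 85.3, 91.8 and 86.1 CPM at 500 nM. Its 3 groups did not overlap, yet the step at 150 nM, 0.16 ± 0.07, was not called (adjusted p = 0.353), while 500 nM gave 0.84 ± 0.06 (adjusted p = 1.01e-11).

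ZNF711, an X-linked factor known to work with the histone demethylase PHF8, stood at 47.0, 50.2 and 58.6 CPM in DMSO, 53.2, 63.3 and 65.7 CPM at 150 nM and 86.2, 81.4 and 88.4 CPM at 500 nM. The lower dose overlapped DMSO and the higher lay above both, with a rise of 0.71 ± 0.08 (adjusted p = 1.99e-08). At 150 nM its difference of 0.22 ± 0.08 was not called (adjusted p = 0.259), though it was without 150 nM replicate 1 (0.31, adjusted p = 0.00859) or DMSO replicate 3 (0.32, adjusted p = 0.0324). ZNF117 rose by 0.69 ± 0.09 (31.4, 31.5 and 38.7 CPM to 50.6, 56.5 and 57.6 CPM). It is known to overlap an endogenous retrovirus locus, so with the strand setting not given its reads cannot be told apart from those of that locus. ZNF569 rose by 0.69 ± 0.09 and ZNF181 by 0.68 ± 0.09, both with KRAB-like patterns and 18 and 11 C2H2 matches. ZNF34 and ZNF844 completed the 10 largest increases, with ZNF598 below, at 0.51 ± 0.12 and 0.51 ± 0.09.

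The largest decrease was that of ZNF860, at 29.7, 31.1 and 29.7 CPM in DMSO, 24.1, 25.3 and 29.8 CPM at 150 nM and 14.3, 14.4 and 13.1 CPM at 500 nM. The 500 nM libraries lay below all others, and 150 nM overlapped DMSO at its upper end. The log2 fold change was -1.11 ± 0.09 (adjusted p = 4.25e-11). ZNF215, a gene of an imprinted chromosome region, stood at 86.5, 79.4 and 87.3 CPM in DMSO, 72.6, 78.3 and 88.8 CPM at 150 nM and 44.6, 43.4 and 46.6 CPM at 500 nM. Again the higher dose alone lay apart, with a fall of -0.91 ± 0.07 (adjusted p = 1.63e-11). ZNF589, a KRAB gene known from haematopoietic stem cells, went from 112, 99.9 and 110 CPM in DMSO through 95.2, 94.8 and 95.4 CPM to 63.4, 61.5 and 59.6 CPM. Its 3 groups did not overlap, but only the higher dose was called (-0.80 ± 0.06, adjusted p = 7.35e-12, against -0.18 ± 0.06, adjusted p = 0.221, at 150 nM).

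ZNF485 (-0.65 ± 0.10), ZNF710 (-0.63 ± 0.09), ZNF546 (-0.51 ± 0.11), ZNF407 (-0.49 ± 0.07) and ZNF594 (-0.47 ± 0.09) also fell at 500 nM. The 500 nM libraries of these 5 lay below their DMSO libraries, as the rule that named them required. Finger number varied widely within both directions: ZNF407 had 24 C2H2 matches and ZNF546 and ZNF594 22 each, while ZNF215 and ZNF496 had 4 each. Against 150 nM the same test called decreases of ZNF860 (-0.92 ± 0.09), ZNF215 (-0.83 ± 0.07) and ZNF589 (-0.63 ± 0.06) and increases of ZNF496 (0.84 ± 0.08), ZNF768 and ZNF275 (0.68 ± 0.06), the 3 largest in each direction.

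**Figure D4:**
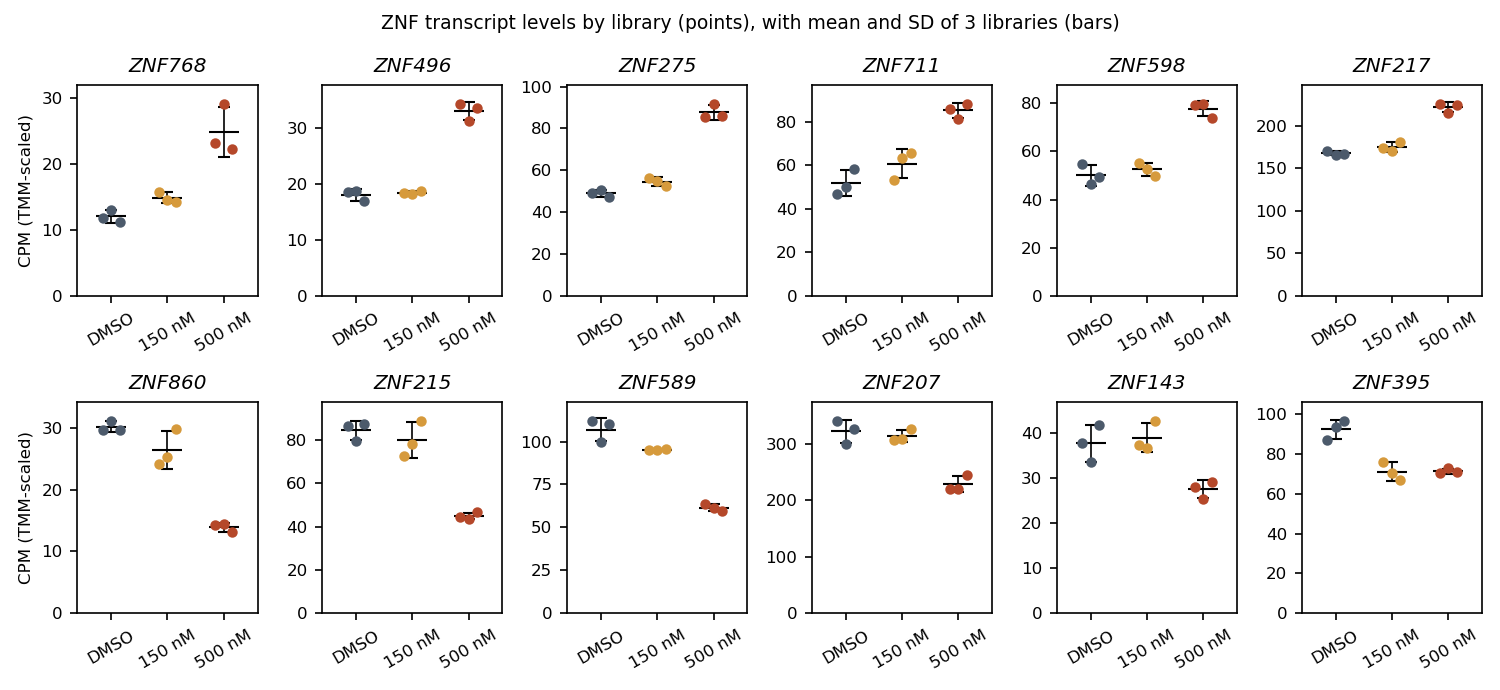
Level of 12 ZNF genes in CPM (TMM-scaled, y axes from 0) in each library (points) of DMSO, 150 nM and 500 nM, with the mean and SD of 3 libraries (bars). ZNF768, ZNF496, ZNF275, ZNF711, ZNF598 and ZNF217 are highest at 500 nM, ZNF860, ZNF215, ZNF589, ZNF207 and ZNF143 are lowest there, and ZNF395 is about equally low at both doses.

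Members known as chromatin or promoter factors held calls in both directions at 500 nM, at about the share of all genes. Of 16 such members, 5 were called higher, 3 lower and 8 not called (8 of 16 called, against 52.0% of all tested genes). At 150 nM 0 of 16 were called, against 1.27% of all tested genes. At 500 nM their median log2 fold change was 0.009, against 0.012 over all genes tested. With total counts it was 0.149, with 7 higher and 3 lower. ZNF143, an activator that binds many housekeeping promoters, stood at 37.8, 33.6 and 41.7 CPM in DMSO, 37.4, 36.8 and 42.7 CPM at 150 nM and 28.1, 25.4 and 29.1 CPM at 500 nM. The 500 nM libraries lay below the other 6, with a fall of -0.45 ± 0.09 (adjusted p = 6.97e-05). ZNF281, a pluripotency-associated repressor, fell by -0.38 ± 0.07 (73.2, 70.7 and 81.0 CPM to 57.5, 58.3 and 57.3 CPM). ZNF318, which is needed for IgD expression in B cells, fell by -0.35 ± 0.07 (53.3 ± 1.68 CPM to 41.8 ± 1.53 CPM, mean ± SD).

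Of the 5 that rose, ZNF217, an oncogene of breast and other cancers that binds corepressor complexes, stood at 170, 166 and 167 CPM in DMSO, 174, 170 and 181 CPM at 150 nM and 226, 215 and 224 CPM at 500 nM. Its 500 nM libraries lay above the rest (0.40 ± 0.05, adjusted p = 1.24e-07). ZNF410, known for activating the remodeller gene CHD4, stood at 72.7, 73.1 and 65.8 CPM in DMSO, 73.9, 72.0 and 77.3 CPM at 150 nM and 99.9, 95.7 and 96.6 CPM at 500 nM (0.47 ± 0.06, adjusted p = 3.29e-07). The higher dose lay apart from both other groups. CHD4 itself fell from 749, 770 and 766 CPM to 551, 577 and 546 CPM (-0.45 ± 0.05, adjusted p = 2.55e-09). ZNF516 rose by 0.47 ± 0.08 and ZNF335, a regulator of the REST programme in neural progenitors, by 0.31 ± 0.08.

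The rise of ZNF263 was small, 0.21 ± 0.07 (adjusted p = 0.0114), and its call was lost when DMSO replicate 3 was left out (adjusted p = 0.0873) or 500 nM replicate 1 was (adjusted p = 0.124). ZNF274, the protein that brings SETDB1 to ZNF genes, stood at 45.6, 43.4 and 43.2 CPM in DMSO, 44.7, 41.9 and 42.7 CPM at 150 nM and 45.9, 47.1 and 45.7 CPM at 500 nM. Its difference was 0.07 ± 0.07 (adjusted p = 0.412). Also not called were ZNF148 (-0.09 ± 0.07), ZNF384 (0.03 ± 0.08), ZNF532 (-0.11 ± 0.05), ZNF592 (-0.02 ± 0.06), ZNF638 (-0.13 ± 0.06, adjusted p = 0.0572), ZNF644 (0.04 ± 0.06) and ZNF687 (-0.10 ± 0.08). ZNF638, which silences unintegrated retroviral DNA, was near the threshold: its adjusted p was under 0.05 in 10 of 20 alternative fits, and with total counts its value was 0.01.

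The 9 members that act on RNA, ribosomes or ubiquitin included 1 called increase and 3 called decreases at 500 nM (44.4% called, against 52.0% of all tested genes). At 150 nM 0 of 9 were called, against 1.27% of all tested genes. The split at 500 nM depended on the setting: 4 were called higher and 3 lower with GC trends removed, and 4 and 1 with total counts. Their median log2 fold change was -0.039, or -0.027 and 0.100 under these settings. ZNF598, the ubiquitin ligase that marks collided ribosomes, stood at 54.7, 46.3 and 49.3 CPM in DMSO, a mean of 52.5 ± 2.55 CPM (SD) at 150 nM and 79.2, 79.8 and 74.0 CPM at 500 nM. The higher dose lay above both other groups, which overlapped (0.63 ± 0.07, adjusted p = 1.6e-08). ZNF207, known as BuGZ, a kinetochore and spindle protein that stabilises BUB3, went from 340, 300 and 325 CPM through 307, 308 and 326 CPM to 220, 220 and 244 CPM. It fell by -0.50 ± 0.05 (adjusted p = 1.47e-08), with the 500 nM libraries below the other 6.

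The decreases of the other two were smaller and less stable. ZNF106, the member with the highest level, stood at 696, 716 and 750 CPM in DMSO, 734, 742 and 751 CPM at 150 nM and 614, 653 and 669 CPM at 500 nM. Its call, -0.16 ± 0.05 (adjusted p = 0.00545), was lost with total counts (-0.02, adjusted p = 0.744) and without 500 nM replicate 1 (-0.13, adjusted p = 0.0561). ZNF593, a factor of large ribosomal subunit assembly, had overlapping groups (33.3, 33.7 and 27.6 CPM against 27.5, 28.1 and 26.2 CPM). Its call of -0.21 ± 0.08 (adjusted p = 0.0394) was lost without DMSO replicate 1 (adjusted p = 0.145) or 2 (0.158) and without 500 nM replicate 1 (0.0769) or 3 (0.131). It was also lost with total counts (0.516), and with length trends removed the value was 0.01. ZNF326 (-0.17 ± 0.09), ZNF346 (0.17 ± 0.08), ZNF451 (0.10 ± 0.06), ZNF622 (-0.04 ± 0.09) and ZNF830 (0.12 ± 0.08) were not called. In the 20 alternative fits ZNF346 was called in 7 and ZNF326, ZNF451 and ZNF830 in 3 each.

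Against 150 nM, decreases of ZNF638 (-0.17 ± 0.06, adjusted p = 0.0173) and ZNF326 (-0.23 ± 0.09, adjusted p = 0.0253) were called. That of ZNF638 was lost without 150 nM replicate 3 (adjusted p = 0.122) or 500 nM replicate 2 (0.0859) or 3 (0.0661), and that of ZNF326 without 150 nM replicate 3 (0.229) or 500 nM replicate 1 (0.0863) or 2 (0.0841). Both were also lost with total counts, where ZNF638 gave -0.05 (adjusted p = 0.517) and ZNF326 -0.11 (adjusted p = 0.291). The same comparison lost ZNF335 without 500 nM replicate 2 (0.27 ± 0.08 with all libraries, adjusted p = 0.0774 without it) and ZNF34 without 500 nM replicate 1 (0.41 ± 0.12, adjusted p = 0.0678 without it). Of the most abundant members, ZNF24 (193, 204 and 217 CPM in DMSO, 170, 170 and 162 CPM at 500 nM) fell by -0.29 ± 0.06 against DMSO. ZNF655 (180, 176 and 191 CPM, and 177, 168 and 171 CPM) was not called (-0.09 ± 0.05, adjusted p = 0.185).

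Genes with and without a KRAB-like pattern both held more increases than decreases at 500 nM. Of the 177 with the pattern, 52 were called higher and 24 lower (42.9%), with a median log2 fold change of 0.071, and 39 of the 122 others were called higher and 27 lower (54.1%), with a median of 0.046. The share over all tested genes was 52.0%. Against 150 nM the counts were 29 higher and 18 lower of 177 (26.6%, median 0.021) and 36 higher and 23 lower of 122 (48.4%, median 0.060), where 46.5% of all tested genes were called. With GC trends removed they were 59 and 19 with the pattern (44.1%, median 0.084) and 49 and 26 without (61.5%, median 0.062), so the order of the medians turned. The difference between these classes was not tested. The genes with the pattern were expressed at a lower median in DMSO, 26.5 against 36.2 CPM, and were less GC-rich, 42.3% against 46.5%. By finger number, the shares called at 500 nM against DMSO were 45.9%, 48.4% and 55.3% for 11 or more, 6 to 10 and 1 to 5 C2H2 matches, around the 52.0% of all tested genes. Of these, 51 of 157 members with 11 or more C2H2 matches were called higher and 21 lower. With 6 to 10 matches 25 were higher and 19 lower, with 1 to 5 matches 15 and 11, and of the 4 without a match 0 were called.

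Runs of neighbouring members differed at 500 nM: some held calls in both directions and others in one, and whether neighbours moved together was not tested. In RefSeq gene order, allowing at most 1 protein-coding gene between members, 185 of the 298 members that could be placed lay in 46 runs of at least 2, and 12 runs of at least 6 held 99. All 12 were described, and they are named by their end genes. At 500 nM 52.0% of all tested genes were called, 26.3% higher and 25.6% lower, and 47.5% of the 299 members were. In the run ZNF736 to ZNF117, 4 of 6 were called higher and 0 lower, with a median log2 fold change of 0.296, and 6 of 6 differences were above 0. ZNF136 to ZNF791 had 5 higher and 0 lower of 9 (median 0.219), with 9 of 9 above 0. ZNF101 to ZNF737 had 5 higher and 1 lower of 9 (median 0.264), and 8 higher and 1 lower with GC trends removed. In the longest run, the 17 genes from ZNF419 to ZNF417, 3 were called higher and 6 lower (median -0.086). Its share called, 52.9%, was near that of all tested genes. In ZNF627 to ZNF700 1 of 6 was higher and 2 lower (median -0.206).

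Within the run of ZNF101, chosen here after its values were seen, ZNF101 itself fell (65.0, 68.0 and 66.4 CPM to 56.3, 49.0 and 52.7 CPM, -0.33 ± 0.07, adjusted p = 0.000153). ZNF737 at the other end rose (46.9, 46.5 and 52.9 CPM to 68.1, 62.4 and 71.0 CPM, 0.46 ± 0.10, adjusted p = 0.000853), so genes of 1 run went in both directions. The remaining runs had 0 to 2 calls in each direction, and ZNF808 to ZNF468 had 0 of 7 called. The medians of 3 runs changed sign with total counts: ZNF419 to ZNF417 to 0.054, ZNF266 to ZNF846 from -0.080 to 0.060, and ZNF786 to ZNF746 from -0.069 to 0.070. At 150 nM 0 of these 99 genes were called, against 1.27% of all tested genes. Neighbours of 1 cluster can share sequence and, through it, reads, which was not measured here, so they are not taken as independent.

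**Figure D5:**
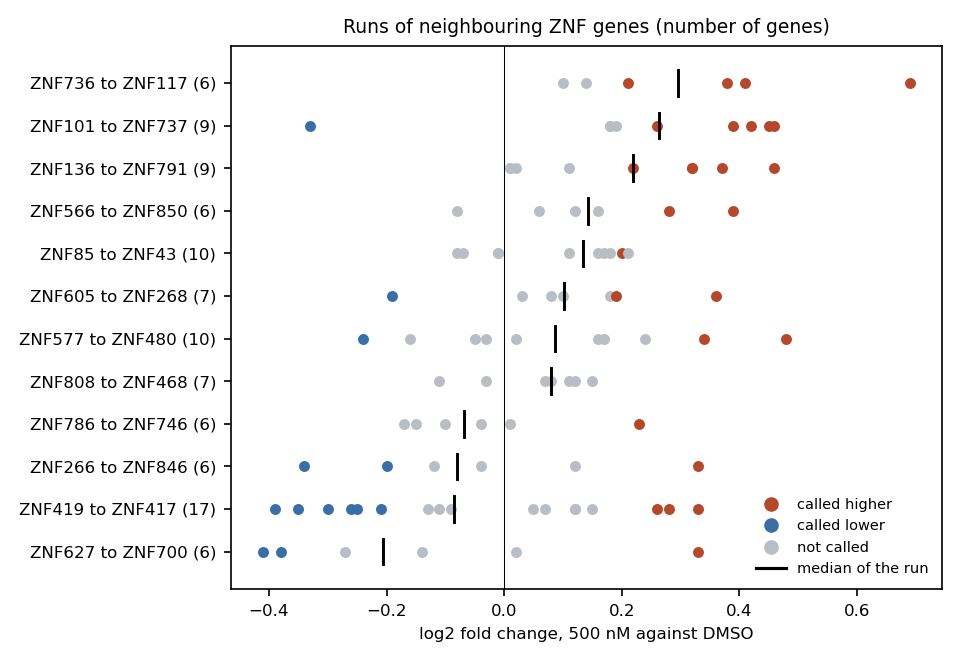
Log2 fold change at 500 nM against DMSO (x axis) of the 99 ZNF genes in the 12 runs of at least 6 neighbours (rows, with the number of genes), coloured by call, with the median of each run as a black bar. Medians go from -0.206 in the run ZNF627 to ZNF700 to 0.296 in the run ZNF736 to ZNF117, and most runs hold genes on both sides of 0.

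Start-site windows of 300 bases were in the RefSeq table for 265 of the 299 members, 2 of them through another symbol. They were set beside all 27305 windows of that table, which include noncoding genes and genes of any level in these cells. Windows of other genes in the members' DMSO range were not compared. The shares below therefore cannot tell a trait of ZNF genes from one of expressed genes. The median member window was 61.7% GC with 22 CpGs, against 58.3% and 14. Matches on either strand, which may overlap between motifs, were found in 66.8% of member windows for the GC box GGGCGG (44.6% of all), 51.7% for CCAAT (35.7%), 19.6% for the ETS element CCGGAAGT (4.44%) and 4.53% for the NRF1 element CGCATGCGC (2.10%). The element ACTACAANT, the core of a site that ZNF143 is known to bind, was in 4.53% of member windows and 1.56% of all, and the ATF and C/EBP composite element TGATGNAA in 1.89% and 3.67%. The NRF1 element was in 1 of 80 windows of members called higher at 500 nM, 5 of 46 of members called lower and 6 of 139 of members not called. The ZNF143 core was in 4 of the 80, 1 of the 46 and 7 of the 139. A match is not a binding site, and its absence means only that these letters are not in the window.

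Of the corepressors with which KRAB proteins work, more were called lower than not at 500 nM. Of 20 listed genes, all of them tested, 13 were called lower (65.0%) and 0 higher, with a median log2 fold change of -0.209. At 150 nM 0 were called, against 1.27% of all tested genes. At 500 nM 25.6% of all tested genes were called lower, with a median of 0.012. Listed genes are all above 40 CPM in DMSO, and of the other genes at 40 CPM or more 43.4% were called lower, with a median of -0.106. With total counts 8 were lower and 2 higher (median -0.070). TRIM28, which KRAB domains bind directly, stood at 527, 490 and 450 CPM in DMSO and 413, 414 and 407 CPM at 500 nM, with all 500 nM libraries below all DMSO libraries (-0.25 ± 0.06, adjusted p = 0.00043). SETDB1 fell by -0.21 ± 0.06. The heterochromatin protein genes CBX3 and CBX5 fell by -0.42 ± 0.05 and -0.38 ± 0.05, the HUSH complex gene FAM208A by -0.44 ± 0.06 and the remodeller gene CHD3 by -0.55 ± 0.05. MORC2 (0.11 ± 0.06), ATRX (0.00 ± 0.06) and DNMT1 (-0.07 ± 0.05) were among the 7 not called.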

How the data were processed

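The authors deposited unnormalized read counts for each gene symbol, with 1 column for each of 9 libraries, per the file headers. Tools listed in the submitters' processing notes, without roles, are featureCounts 1.4.6, Subread, TopHat2 2.0.14 and Bowtie2 2.2.6, and the builds are hg19 and mm10. Neither the annotation nor the strand setting is named: not given in the sources used here. Groups came from the sample titles.

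Low counts were removed by edgeR's filterByExpr at a minimum count of 10 and a minimum total of 15, and libraries were scaled by TMM and fitted by edgeR 4.0.16 (quasi-likelihood, robust, all 9 libraries in one fit, R 4.3.3). P-values were adjusted by Benjamini-Hochberg over all 15089 tested genes and called under 0.05. Errors are SE, n = 3 per group. Alternatives used DESeq2 1.42.0, limma-voom (limma 3.58.1), other scalings and filters, 6 libraries alone, replicate blocks, lowess offsets (span 0.3) on GC content or transcript length, leaving out each library, and other member rules. Reads carry no molecular identifiers here. Within groups, chi-square per degree of freedom between libraries was 6.34 to 15.2, above sampling noise, and each library counted once. The fit was tested on simulated counts in which a small part of the genes was changed, in both directions. Such counts cannot show how the scaling does at 500 nM, where 52.0% of all tested genes were called.

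Transcript length and GC content came from the longest coding transcript of each gene in GENCODE v29, or the longest of any type without a coding one. KRAB-like and C2H2 patterns were searched in all coding transcripts, translated in each forward reading frame, because protein sequences were not used here. The highest C2H2 count of a gene was kept. Named members are those of the role lists, the 10 largest increases and decreases at 500 nM among called genes without overlap, those called at 150 nM, the 3 largest in each direction against 150 nM, the 5 most abundant, and those at the threshold. ZNF101, ZNF737, ZNF146 and the end genes of runs were named outside this rule. Members, lists and rules were chosen with earlier results of these data known.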

Additional observations from a re-analysis of the deposited data

How the results depend on the processing

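The median log2 fold change of members stayed above 0 at 500 nM, against DMSO and against 150 nM, under all 20 alternative fits and 7 other member rules. So did the median of all genes fitted. Against 150 nM that median exceeded the members' with DESeq2 (0.055 against 0.032) and without the filter (0.047 against 0.024). Against DMSO it nearly equalled theirs in these fits (0.061 against 0.062, and 0.060 against 0.061). Among libraries of a group the median member varied with a pooled SD of 0.0347. At 150 nM the count of members called higher, 0 as reported, was 2 with GC trends removed, 3 without the filter, 4 with the replicate block and GC offsets together, 0 to 14 when leaving out each library, and 3 with members chosen on DMSO replicate 3 and fitted without it. Against DMSO at 500 nM total-count scaling gave 149 higher, 27 lower and a median of 0.203. Against 150 nM it gave 132, 20 and 0.160, GC offsets gave 108 higher and a median of 0.077, and GC offsets with the replicate block gave 109 and 0.077. Leaving out each library gave 76 to 97 higher, 42 to 54 lower and medians of 0.050 to 0.091 at 500 nM against DMSO, and 55 to 67, 34 to 51 and 0.016 to 0.064 against 150 nM. At 150 nM these medians ran from -0.007 to 0.032. Signs were followed just for results of named members that were called in any fit. Results never called are not listed, and small decreases among them can also turn with total counts. That scaling moved the median of all genes by 0.139 at 500 nM against DMSO. Of the results followed, ZNF638 changed sign with total counts at 500 nM against DMSO (0.01). Against 150 nM, ZNF644 (0.03), ZNF687 (0.03) and ZNF593 (0.01) did. With length offsets ZNF593 gave 0.01 against DMSO and 0.06 against 150 nM. These values were not called and their cause was not tested. Of 62 called results of named members, 52 were called under all 20 alternatives and 10 lost the call under at least 1. Another 21 results of named members were called only under an alternative.

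The labels do not say whether libraries of one replicate number are paired, and the main fit did not pair them. Their deviations correlated at -0.0525 to 0.1038, against -0.0829 to 0.0352 for unlike numbers. DMSO and 150 nM gave 0.1038 for replicate 1 and 0.0699 for replicate 3, above all unlike pairs. The other pairs of one number gave -0.0525 to 0.0126. With 3 libraries per group these values cannot settle pairing. With the replicate block 101 members were called higher and 55 lower at 500 nM against DMSO (median 0.066), 76 and 43 against 150 nM, and 0 and 1 at 150 nM. Depth of 28476845 counts or more leaves members near 10 CPM with the largest errors, as for ZNF34 (SE 0.12).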

Other observations

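Other families of zinc-finger genes were read from the same fit at 500 nM against DMSO, where 52.0% of all tested genes were called. Of 34 tested ZBTB genes, which pair zinc fingers with a BTB domain, 12 were called higher and 6 lower. Of 14 ZSCAN genes 3 were higher and 1 lower, of 7 ZKSCAN genes 3 were higher and 0 lower, and of 13 ZFP genes 6 were higher and 2 lower. Of 12 KLF genes 5 were higher and 3 lower. With total-count scaling the counts were 14 and 3 for ZBTB, 7 and 0 for ZSCAN, 3 and 0 for ZKSCAN, 6 and 0 for ZFP and 6 and 2 for KLF. These counts hold the tested genes of each family alone, and no level was required of them beyond the filter on low counts. At 150 nM 0 genes of these 5 families were called, against 1.27% of all tested genes.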
